A study of Macaca mulatta with 25 samples.

Results

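The comparison asks how a maternal diet rich in fat, with or without extra testosterone, altered the transcripts of rhesus macaque blastocysts. All 10 libraries from females on the high-fat diet were set against all 15 libraries from females on standard chow, which together are the 25 libraries of the series, and the testosterone implant entered as an additive term. The high-fat diet (36% fat, 46% carbohydrate and 18% protein) was eaten alone by the WSD group (8 libraries) and together with testosterone implants by the TWSD group (2 libraries, TWSD 2 and TWSD 3). The chow (15% fat, 59% carbohydrate and 26% protein) was eaten by the control group C, which carried cholesterol implants (5 libraries, C 1, C 2, C 8, C 11 and C 12), and by the T group with testosterone implants (10 libraries). The labels name no implant for WSD females, so the C and WSD groups may also differ in carrying a cholesterol implant. Each group began with 10 females aged about 2.5 years, just before puberty, and eggs were collected after 5 to 6 years of treatment. Health problems left 10 C, 7 T, 6 WSD and 3 TWSD females for stimulation with recombinant human gonadotropins, so the treated groups are those animals that could still be stimulated. Fresh semen of 4 males was used for fertilization in vitro, and embryos grew for at most 8 days before the zona pellucida was taken off and the blastocysts were frozen. Nothing in the labels ties a library to its mother or father, so the p-values below measure the spread between these libraries, some of which may be siblings.

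A blastocyst consists of an outer epithelium, the trophectoderm, which attaches to the uterus and forms the placenta, and an inner cell mass with the epiblast, the source of the fetus, and the primitive endoderm, the source of the yolk sac. Its cells divide fast, which keeps genes of DNA replication, mitosis and nuclear import highly active. Trophectoderm that goes on developing gives rise to the hormone-secreting syncytiotrophoblast, and embryos under stress switch on p53 targets and the unfolded protein response, the reaction to misfolded protein in the endoplasmic reticulum.

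Library totals ran from 14219054 to 35544542 counts, and 14247 to 21793 genes were detected per library. Neither measure passed a two-sided permutation test between the diets with 100000 resamples (adjusted p = 0.394 for totals and 0.415 for genes detected, 10 against 15 libraries). The summed marker levels of trophectoderm, epiblast and primitive endoderm were above 0 in every library, with the lowest at 3300, 102 and 928 CPM, but 2 controls had little of a defining epiblast marker. POU5F1, the pluripotency factor, stood at 8.51 CPM in C 11 and 0.627 in C 12, against at least 206 in every other library (CPM, counts scaled to a common library size with TMM factors). C 8, C 11, C 12 and T 1 stood apart in genes of later placenta. CGA was at 1004 CPM or more in these 4 libraries and at most 4.24 in the other 21. TWSD 2 stood apart in the opposite direction, with the highest level of all libraries in 71 of the 79 genes found to rise. Called counts are therefore also given without C 8, C 11 and C 12, without T 1 and without TWSD 2. Gene lists are given again only without C 8, C 11 and C 12, as are most leading genes. Some risen genes are also given without TWSD 2.

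Of 13934 genes tested, 79 were higher with the high-fat diet (0.567% of genes tested) and 263 were lower (1.89%), with edgeR (quasi-likelihood test, Benjamini-Hochberg adjusted p under 0.05). Risen genes changed modestly and from high levels, with a median log2 change of 0.91, and fallen genes changed strongly from lower levels, with a median of -2.86. The median over all genes tested was -0.12. Of the 263 fallen genes, 21 reached 1 CPM in no high-fat library and so were tested through chow libraries alone, where a difference in this direction was bound to appear. No gene had all 10 high-fat libraries on one side of all 15 chow libraries (0% in either direction). In tissue lysed whole, as here, fewer cells of a type and less RNA per cell cannot be told apart.

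The diet fit selects genes with WSD above C and TWSD above T, or the reverse, so the order of the 4 group means is largely set by the choice and is given as a description. In all 79, the C group had the lowest mean level and the TWSD group the highest, with T and WSD between them, an order found in 2198 of the 13934 genes. Between WSD and T the median log2 difference of these genes was 0.14, and 0 of 79 passed a direct test with edgeR (1 of 79 at an unadjusted p under 0.05). Among the fallen genes 245 of 263 had the reverse order, C highest and TWSD lowest, against 3775 of all genes.

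The position of the 2 controls that did not stand apart is likewise a description, since they and the WSD libraries entered the choice of these genes. In C 1 and C 2, 67 of the 79 risen genes lay below the WSD median in both libraries, or 84.8% against 27.7% of all genes. Among the 263 fallen genes, both libraries lay above the WSD median in 93, or 35.4% against 28.4% of all genes. High control levels of the fallen genes came mainly from C 12, which had the highest level of all libraries in 148 of them, C 8 in 57 and C 11 in 52. Once C 8, C 11 and C 12 were removed, all 79 risen genes were still higher, with a median of 0.80 on the log2 scale, and 260 of the 263 fallen genes were still lower, with a median of -1.22. Without TWSD 2, all 79 risen genes were higher, with a median of 0.76, and 21 of the 79 and 180 of the 263 passed. None of the 342 passed without C 8, C 11 and C 12 over the same genes, where 1440 genes had an unadjusted p under 0.05 and the smallest adjusted p was 0.0521.

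**Figure D1:**
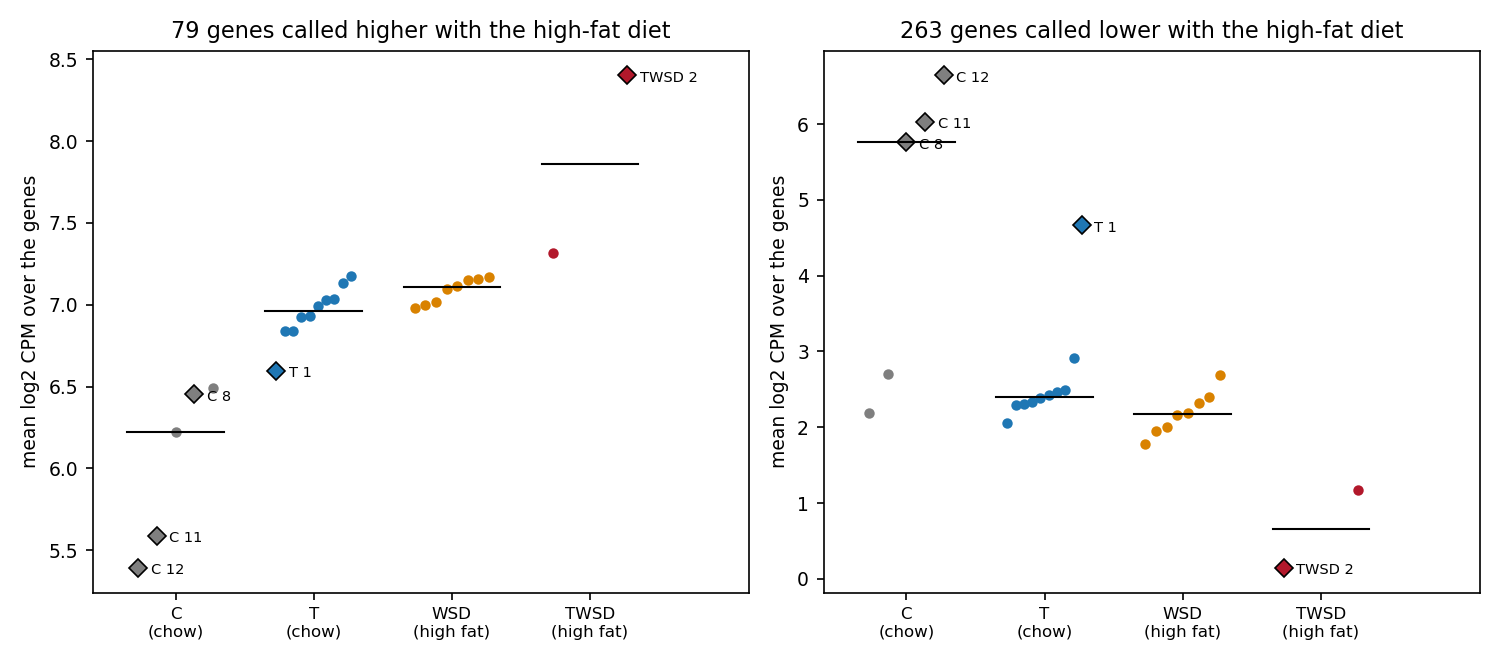
Mean log2 CPM of the 79 genes called higher (left) and the 263 called lower (right) in each library, by group; points are libraries, bars are group medians, and diamonds mark libraries that stood apart. The left panel rises from C (5.39 to 6.49) over T and WSD to TWSD 2 (8.40), and in the right panel C 8, C 11 and C 12 (5.76 to 6.64) lie far above C 1 (2.19) and C 2.

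Genes of DNA replication were among the risen genes. POLA1 (ENSMMUG00000018433), the catalytic subunit of the polymerase that primes new DNA strands, was at 25.7, 25.6, 46.8, 20.1 and 14.4 CPM in C 1, C 2, C 8, C 11 and C 12. It ran from 53.1 to 155 in T (median 101) and from 51.9 to 162 in WSD (median 90.3), and was 334 in TWSD 2 and 87.1 in TWSD 3. Every WSD library lay above every control, while TWSD 3 lay inside the T range and TWSD 2 above it. The fitted rise was 2.98-fold (log2 change 1.57 ± 0.30 SE, adjusted p = 0.0155). The change was 1.43 ± 0.34 without C 8, C 11 and C 12 (adjusted p = 0.0874) and 1.53 without TWSD 2 (adjusted p = 0.0316).

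MCM6 (ENSMMUG00000017486), a subunit of the helicase that opens DNA for copying, was at 386, 208, 272, 134 and 81.8 CPM in the 5 controls in the same order. Its range was 244 to 514 in T (median 403) and 313 to 622 in WSD (median 456), with 1356 in TWSD 2 and 485 in TWSD 3. C 1 lay inside the WSD range and the other 4 controls below it, and MCM6 rose by a log2 change of 1.12 ± 0.22 (adjusted p = 0.0167). It was 0.91 ± 0.21 without the 3 controls (adjusted p = 0.0701) and 0.94 without TWSD 2 (adjusted p = 0.0453). MCM4, another subunit of this helicase, rose by 0.65 ± 0.16 (adjusted p = 0.0365).

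Mitotic genes rose as well. SMC2 (ENSMMUG00000020463), a core ATPase of the condensin ring that compacts chromosomes, had the smallest p of the risen genes. It stood at 98.7, 98.9, 96.4, 57.1 and 33.6 CPM in the 5 controls, 98.2 to 171 in T (median 117), 121 to 237 in WSD (median 142), 354 in TWSD 2 and 175 in TWSD 3. No control reached the lowest WSD library, and both TWSD libraries lay above all T libraries, although TWSD 3 by little. The log2 change was 1.03 ± 0.19 (adjusted p = 0.0155), 0.87 ± 0.18 without C 8, C 11 and C 12 (adjusted p = 0.0589), and 0.89 without TWSD 2 (adjusted p = 0.0316).

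For CKAP5 (ENSMMUG00000003631), a polymerase of spindle microtubules, the level was 109, 83.4, 104, 93.1 and 47.3 CPM in controls, 123 to 233 in T (median 180), 136 to 237 in WSD (median 198), 323 in TWSD 2 and 216 in TWSD 3. Controls again lay below all other libraries, with no overlap between C and WSD, and CKAP5 rose by 0.95 ± 0.18 (adjusted p = 0.0155). Its change was 0.77 ± 0.19 without the 3 controls (adjusted p = 0.0901) and 0.98 without TWSD 2 (adjusted p = 0.0214). ARHGAP11A, a regulator of the GTPase RhoA in dividing cells, rose by 1.15 ± 0.25. ANAPC1, a subunit of the complex that ends mitosis by destroying cyclins, rose by 1.26 ± 0.31. CCNB1, the cyclin of mitotic entry, and TPX2, a spindle assembly factor, rose by 0.90 ± 0.24 and 1.00 ± 0.25. Of the 43 cell cycle genes tested 7 rose, 0 fell and 36 did not pass, where 0.567% of all genes tested rose. The list had a median log2 change of 0.57 against -0.12 over all genes, and 0.35 without C 8, C 11 and C 12. The mean log2 CPM of the list was lowest in C 12 (4.84) and C 11 (5.98) and ran from 6.82 to 7.56 in the other libraries.

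In 15 of the 79 (19%) every WSD library lay above every C library, against 64 of all 13934 genes tested (0.459%). This contrast entered the choice of the 79, so nothing further is read from the count.

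**Figure D2:**
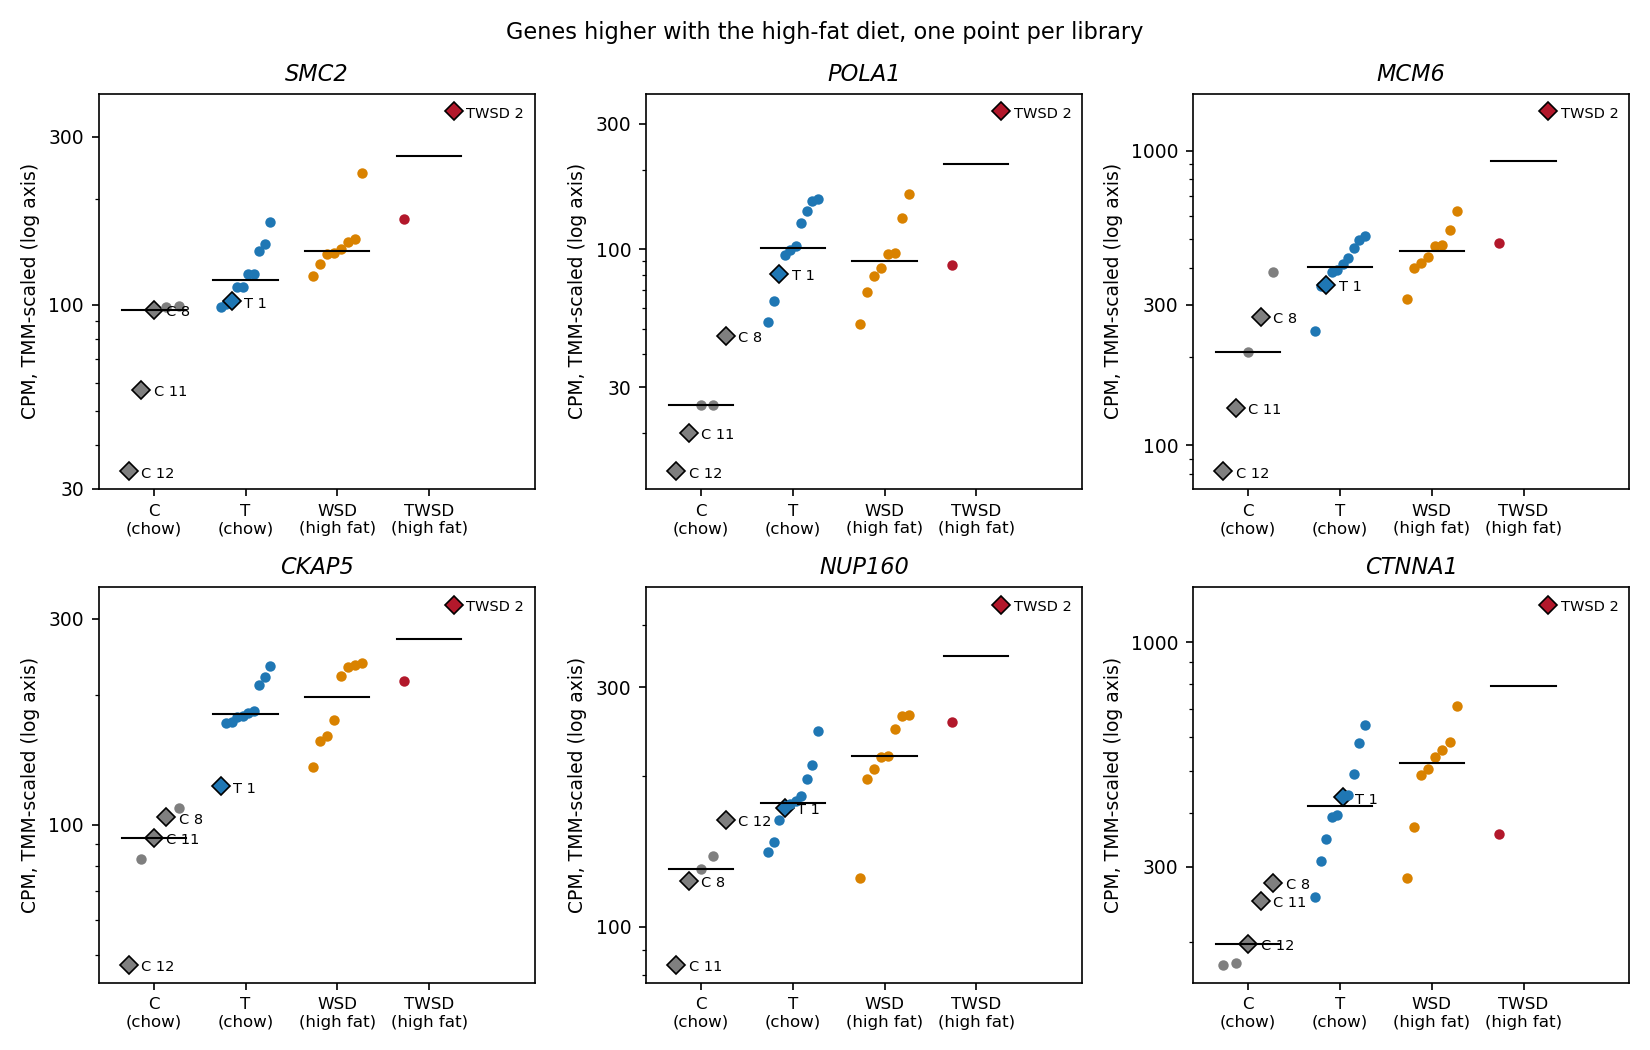
Levels of 6 of the leading risen genes by group (TMM-scaled CPM, log axis); points are libraries, bars are group medians, and diamonds mark libraries that stood apart. POLA1, SMC2, CKAP5 and CTNNA1 have every WSD library above every control, and TWSD 2 is the highest library in all 6 panels.

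Of the 79 risen genes, 7 were on the list of nuclear pore and nuclear transport genes. NUP160 (ENSMMUG00000010869), a scaffold subunit of the pore, was at 138, 130, 124, 84.0 and 163 CPM in the 5 controls, 141 to 245 in T (median 177), 125 to 265 in WSD (median 218), 438 in TWSD 2 and 256 in TWSD 3. The C and WSD ranges overlapped, and both TWSD libraries lay above all T libraries. NUP160 rose by 0.83 ± 0.16 (adjusted p = 0.0155) and did not pass without C 8, C 11 and C 12 over the same genes (0.82 ± 0.17, adjusted p = 0.0589).

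RANBP2, the pore filament protein that binds the GTPase RAN, was at 108, 59.0, 96.7, 27.8 and 86.7 CPM in controls, 102 to 156 in T (median 128), 103 to 181 in WSD (median 139), 325 in TWSD 2 and 172 in TWSD 3. C 1 alone of the controls reached the WSD range, and RANBP2 rose by 0.88 ± 0.19 (adjusted p = 0.0235), with 0.76 and no call without TWSD 2 (adjusted p = 0.054). NUP107, in the same scaffold as NUP160, rose by 0.74 ± 0.17, and NDC1, which anchors the pore in the membrane, by 0.68 ± 0.17. IPO11, NUP155 and NUP93 also passed (log2 changes 1.06, 0.93 and 0.63). In all, 7 of 42 nuclear transport genes rose, 0 fell and 35 did not pass, where 0.567% of all genes tested rose. The list had a median of 0.38, and 0.30 without C 8, C 11 and C 12. The library mean of the list was lowest in C 12 (6.26) and C 11 (6.35).

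Other risen genes act on DNA, chromatin and RNA. Of 35 DNA repair genes 2 rose and 0 fell (median 0.29), where 0.567% of all genes tested rose. MRE11, a nuclease that trims broken DNA ends, was at 62.6, 131, 63.8, 27.7 and 39.6 CPM in controls, 63.7 to 113 in T (median 77.8), 100 to 124 in WSD (median 110), 203 in TWSD 2 and 148 in TWSD 3. C 2 exceeded every WSD library and the other 4 controls lay below them, and MRE11 rose by 0.89 ± 0.20 (adjusted p = 0.0246). PRKDC, the kinase that joins broken ends, rose by 0.76 ± 0.18.

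Of 35 chromatin genes, HDAC1, a histone deacetylase, and EZH2, which methylates histone H3, rose (0.68 ± 0.17 and 0.67 ± 0.18), 33 did not pass and the list median was 0.05. Over all genes tested 0.567% rose. TET1, which oxidizes methylated cytosine, was the 1 of 17 DNA methylation genes to rise (1.32 ± 0.35, adjusted p = 0.0428). It stood at 3.76 CPM in C 12 and 38.4 to 84.7 in the other controls, against 104 to 256 in WSD. RNF20, which marks histone H2B with ubiquitin, rose by 0.80 ± 0.18. DIS3 and SKIC3, parts of the machinery that degrades RNA, rose by 1.16 ± 0.23 and 1.16 ± 0.24. Without TWSD 2 the changes of DIS3 and SKIC3 were 0.93 and 0.91 and did not pass (adjusted p = 0.0513 and 0.0578).

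CTNNA1 (ENSMMUG00000017985), alpha-catenin, which ties epithelial junctions to actin, was at 178, 177, 275, 250 and 198 CPM in controls, 255 to 641 in T (median 415), 282 to 709 in WSD (median 523), 1220 in TWSD 2 and 357 in TWSD 3. Every WSD library lay above every control, and TWSD 3 lay inside the T range. The log2 change was 1.11 ± 0.22 (adjusted p = 0.0155), and 1.19 ± 0.27 without C 8, C 11 and C 12 (adjusted p = 0.0758). DSG2, a desmosomal cadherin, rose by 0.80 ± 0.20 and PKP1, a desmosomal plaque protein, fell by 5.45 ± 1.44. In all, 24 of 27 junction genes did not pass, where 2.45% of all genes tested were called in either direction.

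Some genes of p53 and apoptosis fell. CDKN1A (ENSMMUG00000055964), the p53 target p21 that halts the cell cycle, was at 54.5, 85.4, 563, 1436 and 4135 CPM in C 1, C 2, C 8, C 11 and C 12. It ran from 8.38 to 124 in T (median 33.9) and from 11.6 to 121 in WSD (median 36.6), and was 0.387 in TWSD 2 and 2.55 in TWSD 3. C 1 and C 2 lay inside the WSD range and the other controls far above it, while both TWSD libraries lay below every other library. CDKN1A fell by a log2 change of 4.89 ± 0.73 (adjusted p = 0.00277), and the change was -2.86 ± 1.18 without C 8, C 11 and C 12 (adjusted p = 0.378).

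Of 29 genes of apoptosis and p53, 5 fell, 0 rose and 24 did not pass, where 1.89% of all genes tested fell. The list had a median of -0.44, and -0.15 without the 3 controls. AEN, a p53-induced nuclease, fell by 2.46 ± 0.51, BBC3, the killer protein PUMA, by 1.84 ± 0.48, and the survival genes XIAP and BCL2L1 by 3.17 ± 0.87 and 1.05 ± 0.29. BBC3 reached 261 CPM in C 12, while the remaining controls had 16.2 to 35.2 and WSD libraries 4.86 to 28.1.

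Of 23 immediate early and heat shock genes JUNB fell, the chaperone gene HSPA4 rose (0.68 ± 0.16) and 21 did not pass, with a median of 0.02. Over all genes tested 2.45% were called in either direction. JUNB (ENSMMUG00000005688), an immediate early gene of the AP-1 family, was at 38.5, 35.6, 350, 264 and 1143 CPM in controls, 27.7 to 74.2 in T (median 47.9), 9.08 to 61.1 in WSD (median 34.5), 13.2 in TWSD 2 and 18.1 in TWSD 3. C 1 and C 2 sat within the WSD range, and both TWSD libraries lay below all T libraries. JUNB fell by 2.72 ± 0.47 (adjusted p = 0.0116), and the change was -0.88 ± 0.42 without the 3 controls. HEXIM1, an inhibitor of the kinase that releases RNA polymerase II, fell by 4.42 ± 0.83, with 3317 CPM in C 12, 138 and 245 in C 11 and C 8, and 4.93 and 15.6 in C 1 and C 2. Its change without the 3 controls was -1.11 ± 1.06 (adjusted p = 0.807).

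Of 34 genes of the unfolded protein response 3 fell, 0 rose and 31 did not pass, where 1.89% of all genes tested fell. CEBPB, a transcription factor of stress and differentiation, was at 19.1, 17.3, 279, 95.6 and 312 CPM in controls, 5.47 to 66.7 in T (median 14.2), 6.24 to 11.2 in WSD (median 8.09), 4.64 in TWSD 2 and 16.0 in TWSD 3. Here C 1 and C 2 also lay above every WSD library. CEBPB fell by 2.71 ± 0.57 (adjusted p = 0.0184), PPP1R15A, which ends the translational block of stressed cells, by 3.24 ± 0.68, and ATF3, a stress-induced factor, also fell (log2 change -3.50 ± 0.74).

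DDIT3, which drives cell death when such stress persists, did not pass (-3.33 ± 1.20, adjusted p = 0.133). It was at 11, 21.9, 268, 302 and 8642 CPM in C 1, C 2, C 8, C 11 and C 12 and at 9.68 to 27.7 in WSD. The median of the unfolded protein response list was -0.31 and turned to 0.29 without C 8, C 11 and C 12. The library means (log2 CPM) of C 8, C 11 and C 12 were 6.90, 7.82 and 8.96, and those of the remaining 22 libraries 5.65 to 6.56.

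**Figure D3:**
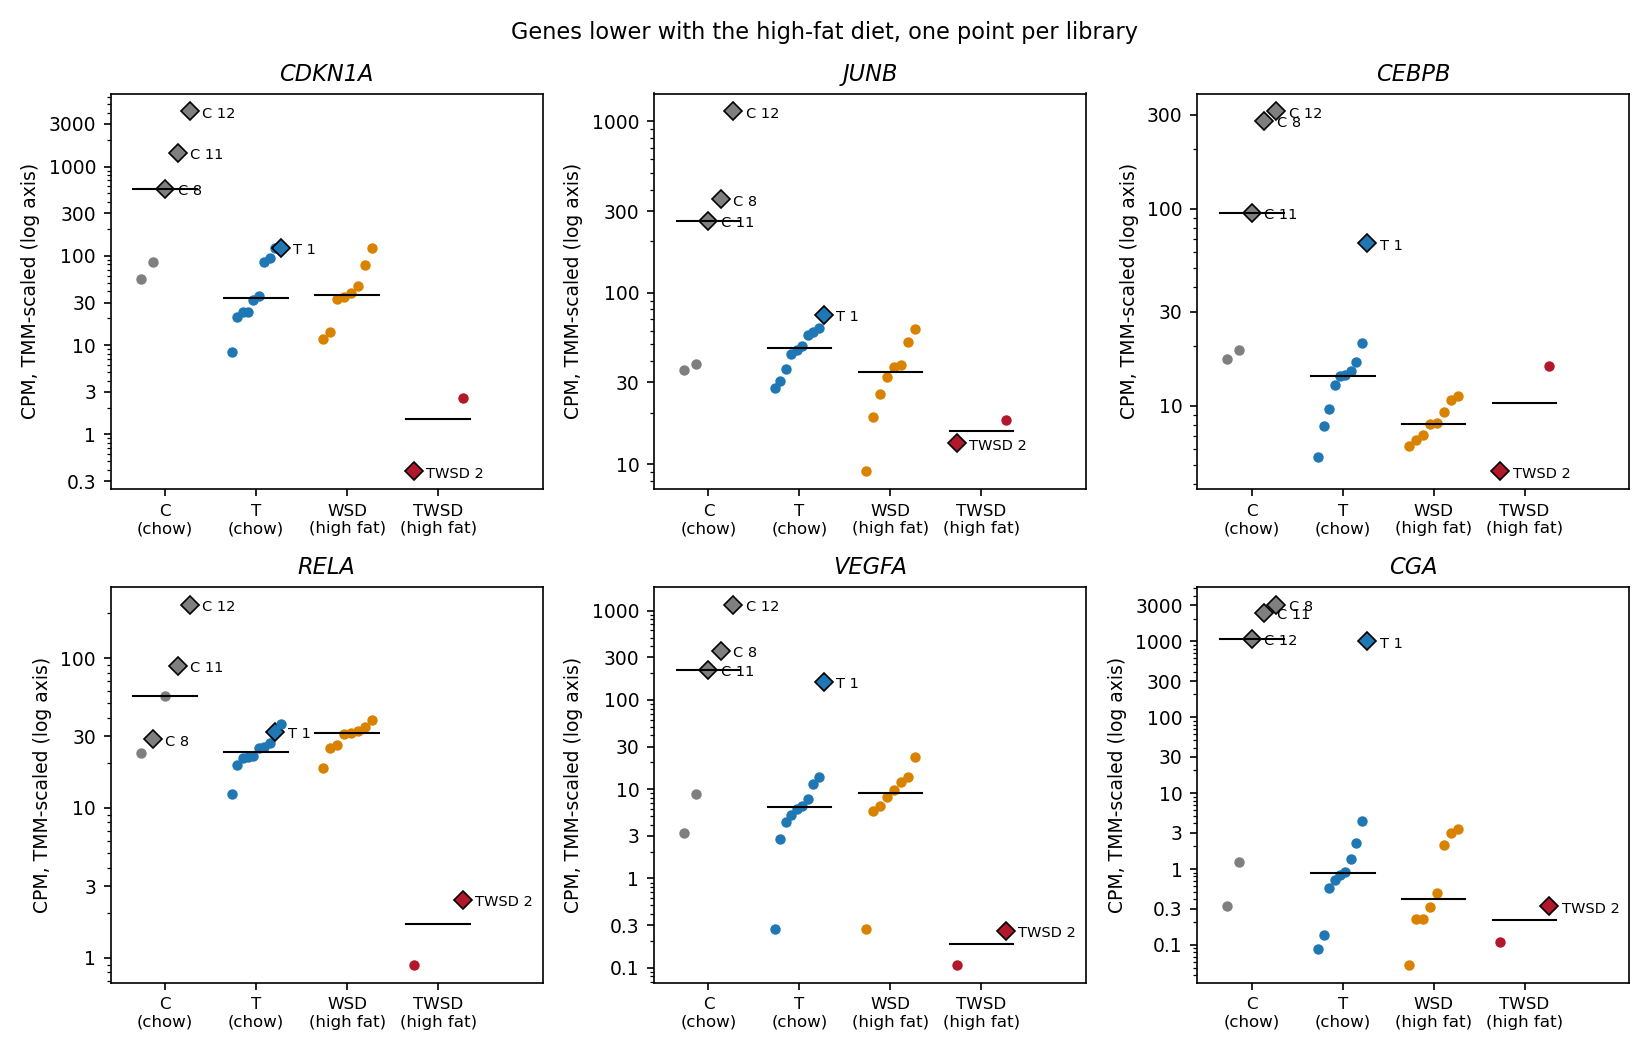
Levels of 6 fallen genes by group (TMM-scaled CPM, log axis); points are libraries, bars are group medians, and diamonds mark libraries that stood apart. C 12 or C 8 is the highest library in each panel, and both TWSD libraries lie below every T library for CDKN1A, JUNB, RELA and VEGFA.

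Inflammatory signalling genes fell in 3 of 21 cases and rose in 0, where 1.89% of all genes tested fell. The list had a median of -0.55 (-0.08 without the 3 controls). RELA (ENSMMUG00000007418), the p65 subunit of NF-kappa-B, was at 55.4, 23.4, 28.6, 89.1 and 226 CPM in controls, 12.4 to 36.3 in T (median 23.7), 18.5 to 38.4 in WSD (median 31.5), 2.45 in TWSD 2 and 0.899 in TWSD 3. C 2 and C 8 lay inside the WSD range, which overlapped the T range, and both TWSD libraries lay below every other library. RELA fell by 2.15 ± 0.44 (adjusted p = 0.0171), with nearly the same estimate without the 3 controls (-2.11 ± 0.63, adjusted p = 0.164).

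CCRL2 (ENSMMUG00000014260), a receptor that binds the attractant chemerin, had the smallest p of all genes (adjusted p = 0.00268). It was tested only because 5 chow libraries, C 8, C 11, C 12, T 1 and T 3, reached 1 CPM, so a fall with the high-fat diet was bound to appear, and its change without the 3 controls was -5.15 ± 1.63 (adjusted p = 0.205). It had 2 reads over 10 high-fat libraries against 6225 over 15 chow libraries, a 2370-fold difference in summed rates (95% counting interval 656 to 19600). C 12 held most of these reads, at 261 CPM. The level was 26.3 in C 11 and 19.7 in C 8, with 0.585 and 0 in C 2 and C 1. SLAMF1, a receptor of immune cells, had 2 reads against 1006, and at most 0.128 CPM in high-fat libraries. IL1RN, the interleukin 1 receptor antagonist, was at 255 to 1105 CPM in C 8, C 11, C 12 and 317 in T 1. It was at 0.738 or less in high-fat libraries. SLAMF1 and IL1RN were thus also tested through chow libraries alone, where a fall was bound to appear.

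LIF (ENSMMUG00000048630), a cytokine needed for implantation, reached 1 CPM in 6 chow libraries and in no high-fat library, so it too was tested through chow libraries alone. It had a count in 12 of 15 chow libraries and in 2 of 10 high-fat libraries, with 499 against 3 reads, a 127-fold lower summed rate (95% counting interval 43.1 to 617). Its level was low throughout, at 0.0587, 0.39, 0.763, 0.150 and 6.27 CPM in the 5 controls, 0 to 4.77 in T (median 1.06), at most 0.073 in WSD and 0 in both TWSD libraries. T and TWSD ranges met at 0. LIF fell by 6.58 ± 1.42 (adjusted p = 0.0203), and the change was -5.20 ± 1.80 without the 3 controls (adjusted p = 0.258). The intervals cover counting error alone.

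Of 25 implantation genes, LIF, HBEGF and VEGFA fell, 0 rose and 22 did not pass, where 1.89% of all genes tested fell. The list had a median of -1.61, and -0.60 without the 3 controls. HBEGF (ENSMMUG00000060742), a growth factor that promotes attachment to the uterus, was at 0.352, 27.5, 0.356, 19.1 and 525 CPM in controls, 0 to 5.80 in T (median 1.50) and 0 to 3.64 in WSD (median 0.923). TWSD 2 had 0.0644 and TWSD 3 had 0, inside the T range, and C 1 and C 8 lay inside the WSD range. HBEGF fell by 6.13 ± 1.19 (adjusted p = 0.0155), and its change was -4.16 ± 1.35 without the 3 controls (adjusted p = 0.212).

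VEGFA (ENSMMUG00000004577), which draws blood vessels, was at 3.23, 8.78, 353, 218 and 1157 CPM in controls, 159 in T 1 and 0.274 to 13.7 in the other T libraries, 0.274 to 22.8 in WSD (median 8.96), 0.258 in TWSD 2 and 0.108 in TWSD 3. C 1 and C 2 lay inside the WSD range, and both TWSD libraries just below the T range. It fell by 5.55 ± 1.12 (adjusted p = 0.0171), and its change was -2.84 ± 2.69 without the 3 controls (adjusted p = 0.8).

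Markers of syncytiotrophoblast had a median of -4.07. Of 13 tested, 6 fell (ERVV-1, CGA, PGF, OVOL1, CAPN6 and SDC1), 0 rose and 7 did not pass, where 1.89% of all genes tested fell. CGA (ENSMMUG00000000222), the alpha subunit of chorionic gonadotropin, had 1.23 CPM in C 1 and 0.325 in C 2 but 3025, 2400 and 1073 in C 8, C 11 and C 12. It was at 1004 in T 1, 0.0547 to 3.34 in WSD (median 0.397), and 0.322 and 0.108 in TWSD 2 and TWSD 3. C 1 and C 2 thus lay inside the WSD range. CGA fell by 9.83 ± 2.09 (adjusted p = 0.0203), and its change was -3.91 ± 4.96 without the 3 controls (adjusted p = 0.873).

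PGF, a placental relative of VEGFA, fell by 4.07 ± 0.88 and OVOL1, a transcription factor of trophoblast fusion, by 4.28 ± 1.05. ERVV-1, an envelope gene of an endogenous retrovirus active in placenta, fell by 9.05 ± 1.75. ERVV-1 had at most 0.0962 CPM in high-fat libraries and so was tested through chow libraries alone, where a fall was bound to appear. The summed level of the marker list ran from 119 to 1080 CPM in high-fat libraries (median 554) and from 277 to 13600 in chow libraries (median 582), so the medians were close and the upper ends were not. The median of the list moved to -0.58 without C 8, C 11 and C 12.

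FST (ENSMMUG00000004860), follistatin, which binds activin and is known from granulosa cells, ranged from 561 to 3661 CPM over C 8, C 11 and C 12. T 1 had 554, and no high-fat library exceeded 4.74. It fell by 9.67 ± 1.86 (adjusted p = 0.0155), and its change was -4.34 ± 3.66 without the 3 controls (adjusted p = 0.761). CYP11A1, the enzyme that starts steroid synthesis in placenta and ovary, fell by 1.80 ± 0.43. With it HSD17B2, which inactivates sex steroids, made up the 2 of 21 steroid genes that fell. FST and CYP11A1 were the 2 of 8 tested cumulus and granulosa markers that fell, where 1.89% of all genes tested fell. The summed level of these markers was 352 to 674 CPM in high-fat and 262 to 5430 in chow libraries. Of the 18 listed, FSHR and AMH had medians of 0 in both diets, with at most 0.273 and 8.88 CPM in any library. Others had higher maxima in chow than in high-fat libraries, with 667 against 6.28 CPM for VCAN, 267 against 15.5 for HAS2, 212 against 0.384 for TNFAIP6, 188 against 22 for INHA and 10.9 against 0.0853 for FOXL2. The part of such cells in the result was not tested.

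Calls among lineage markers of the blastocyst itself are given beside the 2.45% of all genes tested that were called in either direction. Of 15 trophectoderm markers TFAP2A and the amino acid transporter SLC7A2 fell (-2.71 ± 0.66 and -2.77 ± 0.55) and 13 did not pass. TFAP2A ranged from 521 to 1161 CPM over C 8, C 11 and C 12 but had 27.5 and 46.9 in C 1 and C 2, against 22.7 to 87.8 in WSD. CDX2, the trophectoderm master gene, was at 122, 263, 149, 51.1 and 1.57 CPM in controls, 33.8 to 182 in T (median 86.3), 80.7 to 285 in WSD (median 169), 29.4 in TWSD 2 and 171 in TWSD 3, with overlapping groups. Its change was 0.37 ± 0.49 (adjusted p = 0.755), and GATA3, which acts beside it, had -0.77 ± 0.36 (adjusted p = 0.252).

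None of 16 epiblast markers passed. POU5F1 reached 1068 CPM in C 1 and 525 in C 2, 341 to 965 in T (median 729), 242 to 706 in WSD (median 430), 444 in TWSD 2 and 406 in TWSD 3. High-fat and chow ranges overlapped, with C 1, T 1, T 3, T 4, T 7 and T 8 above all high-fat libraries. The log2 change was 0.03 ± 0.63 over all libraries and -0.70 ± 0.25 without the 3 controls (adjusted p = 0.268). NANOG, which acts with it, had 0.93 ± 0.58 and 0.15 ± 0.26. The median of the epiblast list was 0.61 over all libraries and 0.01 without the 3 controls.

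Of 20 primitive endoderm markers APOB and TTR, carriers of lipid and of thyroid hormone in blood, fell (-7.48 ± 1.55 and -8.35 ± 1.86), with 1344 and 2186 CPM in C 11 and at most 15.8 and 15.2 in any other library. SOX17 and GATA4, which specify this lineage, had changes of -0.12 ± 0.77 and -0.23 ± 0.75 (adjusted p = 0.96 and 0.916). SOX17 was at 0.193 CPM in TWSD 2 and 99.1 in TWSD 3, and at 24.3 to 235 in WSD. The 17 oocyte markers tested gave 0 calls in either direction, as did 2 sperm, 8 blood and 8 Y-linked genes. The sperm protamine genes had at most 0.366 CPM in any library, while TSSK6 of the sperm list reached 17 in a chow library. The blood marker PTPRC had at most 1.91, while CD14 reached 240, ALAS2 101 and CSF1R 50.1 in chow libraries, against 7.69, 0.515 and 32.2 in high-fat libraries. Other values went the other way. The median of CSF1R was 18.2 in high-fat and 5.33 in chow libraries. Maxima were 26.6 against 10.9 for CD163 and 17 against 9.79 for LYZ. The summed level of the blood list was 9.31 to 62.4 CPM in high-fat (median 38.9) and 15.5 to 313 in chow libraries (median 34.5). The part of this list in the results was not tested.

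Calls among genes of lipid metabolism stand beside 2.45% of all genes tested called in either direction, and nothing about the pathway is read from their number. None of 28 genes of fatty acid oxidation passed (median 0.04), and the smallest p belonged to ETFA, an electron carrier of this pathway (0.49 ± 0.20, adjusted p = 0.179). Of 32 genes of lipid storage and synthesis 1 passed. PNPLA2 (ENSMMUG00000056078), the lipase that starts the breakdown of stored fat, was at 51.7, 21.5, 26.2, 38.5 and 114 CPM in controls, 8.16 to 55.4 in T (median 22.0), 6.49 to 26.3 in WSD (median 20.1), 3.03 in TWSD 2 and 13.0 in TWSD 3. All groups overlapped except TWSD with C, and PNPLA2 fell by 1.48 ± 0.40 (adjusted p = 0.0466).

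PNPLA2 passed in 8 of 25 comparisons that each left out 1 library, and its change without the 3 controls was -1.25 ± 0.48. Of 32 cholesterol genes 0 rose, 1 fell and 31 did not pass (median 0.04, and 0.25 without the 3 controls).

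Of 33 genes of insulin and insulin-like growth factor signalling, IRS2, which relays the insulin receptor's signal, and IGF2, a fetal growth factor, fell (-6.37 ± 1.43 and -6.52 ± 1.57). IGF2 ranged from 118 to 999.8 CPM over C 8, C 11 and C 12. T 1 had 36.3, and no high-fat library exceeded 2.87. IRS2 was at 255 CPM in C 12 and at most 24.0 elsewhere. Of 14 imprinted genes, IGF2, CDKN1C, a brake on growth, and SLC22A18, a transporter, fell, and 11 did not pass (median -0.26, and 0.18 without the 3 controls). Over all genes tested 1.89% fell. CDKN1C ranged from 573 to 932 CPM over C 8, C 11 and C 12 and was at 5.57 or less in high-fat libraries (-6.44 ± 1.35, adjusted p = 0.0194).

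Energy genes gave no calls, where 2.45% of all genes tested were called in either direction. None of 23 TCA cycle genes (median 0.36), 49 respiratory chain genes (median 0.30), 24 glycolysis genes (median 0.29) or 26 genes of oxidative stress defence (median 0.07) passed, against a median of -0.12 over all genes. Without C 8, C 11 and C 12 these list medians were 0.16, 0.18, 0.26 and 0.06, against -0.05 over all genes. The nearest to passing was SDHA, shared by the TCA cycle and the respiratory chain (0.87 ± 0.24, adjusted p = 0.0503). SDHA was at 374, 134, 125, 90.2 and 80.7 CPM in controls and 212 to 367 in WSD, so C 1 lay above every WSD library. None of 46 ribosomal protein genes and none of 15 interferon response genes passed.

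**Figure D4:**
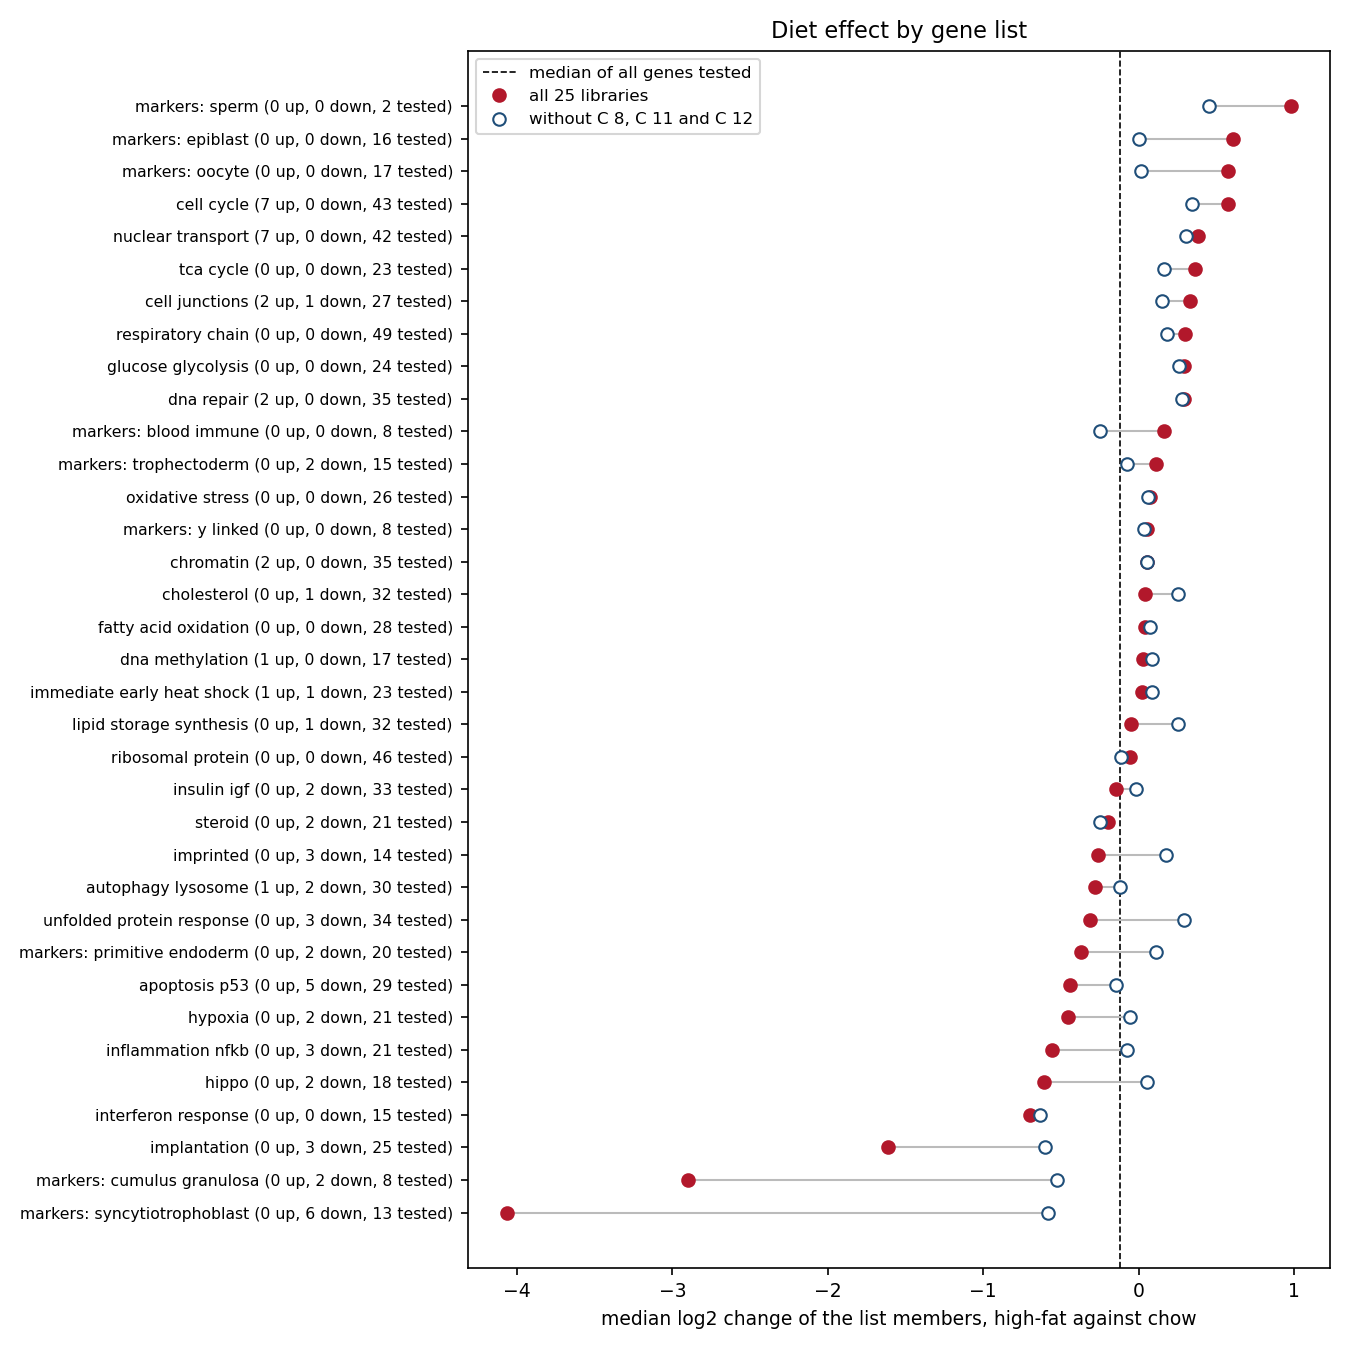
Median log2 change of each gene list, high-fat against chow, over all 25 libraries (filled) and without C 8, C 11 and C 12 (open); the dashed line is the median of all genes tested (-0.12), and labels give the number of genes called in each direction. Cell cycle and nuclear transport lists keep medians above 0 in both (0.57 and 0.35, 0.38 and 0.30), and the syncytiotrophoblast list moves from -4.07 to -0.58.

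The additive term joins 2 comparisons that share no library. Between WSD and C, 65 genes were higher (0.466%) and 502 lower (3.6%) in the edgeR fit with 1 mean per group. Between TWSD and T, with 2 libraries on one side, 3 were higher (0.0215%) and 4 lower (0.0287%). The 79 risen genes had medians of 0.81 in WSD against C and 0.98 in TWSD against T, and the 263 fallen genes -3.46 and -2.30, but both comparisons fed the choice of these genes. Genes called in WSD against C rest on a difference between levels of those 2 groups. All 25 libraries set the filter, the scaling and the spread of that fit, so the choice was not independent of TWSD and T. Of those 65 higher genes 44 were also higher in TWSD than in T (67.7%, against 42.8% of all genes), and of the 502 lower genes 318 were lower (63.3%, against 57.2%). Their medians in TWSD against T were 0.32 and -0.33, beside -0.19 over all genes. Read in single libraries against the T median, TWSD 3 was above for 69.2% of the 65 (47.2% of all genes) and below for 65.3% of the 502 (52.0%), and TWSD 2 above for 66.2% (42.1%) and below for 53.8% (57.2%).

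A test of the difference between the 2 diet effects, the diet by implant interaction, passed for 10 genes (0.0718%). MOSPD2, which tethers the endoplasmic reticulum to other organelles, was at 5.11 to 20.9 CPM in T (median 11.9), 3.24 to 22.4 in WSD (median 7.32) and 6.45 to 21.5 in C, with 0 counts in both TWSD libraries. This was at least 203-fold lower than in T, taking 3 counts over the TWSD group as the floor (interaction -10.72 ± 1.51, adjusted p = 0.00287). ZNF300, a zinc finger protein, and TCEANC, related to elongation factors, had the same pattern, at least 143-fold and 84.6-fold lower. All 3 were thus undetected in the TWSD group alone.

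SEPTIN4, a cytoskeletal GTPase, was at 196 CPM in C 12, 21.4 in TWSD 2 and 0.036 in TWSD 3 (interaction 11.95 ± 2.09). DDIT3 fell between C and WSD and had 41.2 and 24.9 CPM in TWSD, inside the T range of 10.1 to 67.3 (interaction 7.20 ± 1.34, adjusted p = 0.034). Without TWSD 2 no gene passed the interaction test (687 at an unadjusted p under 0.05), without TWSD 3 2245 did, and without C 8, C 11 and C 12 3 did, MOSPD2 and ZNF300 among them.

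The counts of called genes turned on single libraries. Leaving out 1 library at a time gave between 22 and 211 higher and between 68 and 469 lower genes. The higher count moved by more than 1.5 times without C 1 (211), C 2 (123), C 11 (38), T 11 (46), TWSD 2 (46), TWSD 3 (147) or any WSD library but WSD 3 (22 to 44). The lower count did so without C 1 (440), C 2 (411), C 11 (129), C 12 (73), T 1 (166), T 11 (160), TWSD 3 (469) or any WSD library (68 to 114). The 12 leading risen genes passed in 24 or 25 of the 25 comparisons, and CDKN1A, JUNB, VEGFA and CGA in all 25. These comparisons never left out C 8, C 11 and C 12 together, and none of the 342 called genes passed without all 3 over the same genes. Some other fallen genes passed in fewer of the 25, XIAP in 7, BBC3 and PKP1 in 12 and IGF2 in 16. Among risen genes outside the leading 12, EZH2 passed in 12, TET1 in 14, HDAC1 in 16 and MRE11 in all 25. Without C 12 AEN was at -1.05, HBEGF at -3.60 and LIF at -5.02, and without C 11 APOB was at -2.63 and TTR at -3.21, none of which passed.

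Without C 8, C 11 and C 12, and with the filter on low counts applied again, 22 genes were higher and 2 lower. Of the 22, 9 belonged to the 79 (DIS3, SKIC3, SMC2, NUP160, RANBP2, NUP107, CEP97, ZNF638 and a gene without a symbol), and neither of the 2 belonged to the 263. New among the 22, and chosen for mention after their values were seen, were the proliferation gene MKI67 and the topoisomerase TOP2A. MKI67 was at 106, 124, 136 and 149 CPM in C 1, C 2, C 8 and C 11, and 0.261 in C 12. It was at 143 to 260 in T, 172 to 299 in WSD, and 369 and 291 in TWSD 2 and TWSD 3. No control of group C reached a high-fat library, but the T and WSD ranges overlapped. Its change without the 3 controls was 0.85 ± 0.16 (adjusted p = 0.0444), and with them 0.99 ± 0.43 (adjusted p = 0.214).

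With TWSD 2 left out as well, 0 genes were higher and 1 was lower (1197 at an unadjusted p under 0.05). That gene, ADIPOR1, a receptor of the fat-derived hormone adiponectin, fell by 1.86 ± 0.28 (adjusted p = 0.0139) but had not passed over all libraries (-1.04 ± 0.35, adjusted p = 0.108). It was at 279 CPM in C 1 and 68.5 in C 2, the only controls left in that comparison, and at 18.8 to 41.6 in WSD, 74.0 in TWSD 2, 21.8 in TWSD 3 and 24.0 to 51.2 in T. C 1 was the highest of all libraries.

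**Figure D5:**
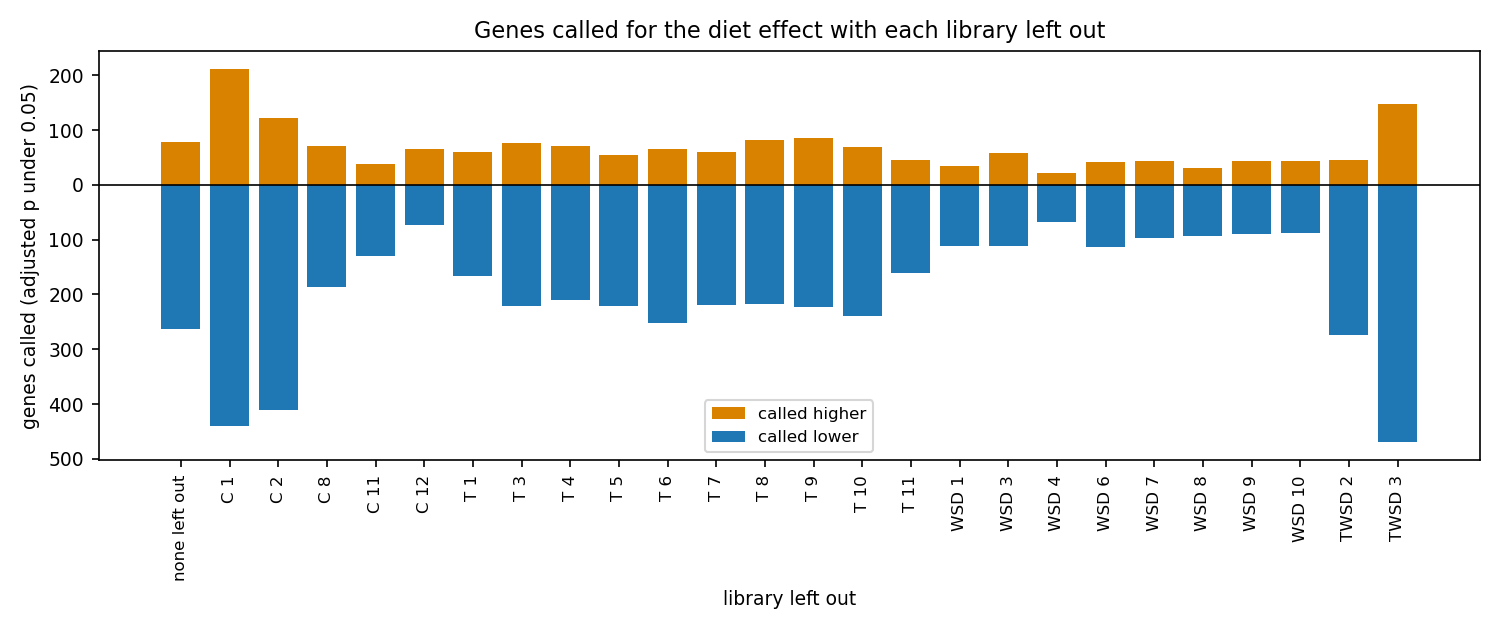
Genes called higher (upward bars) and lower (downward bars) for the diet effect when each library is left out in turn; the first bar is the full comparison, with 79 higher and 263 lower. Counts run from 22 higher and 68 lower without WSD 4 to 211 higher without C 1 and 469 lower without TWSD 3.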

How the data were processed

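Bulk RNA sequencing libraries of rhesus macaque blastocysts were compared by maternal diet. The deposited values are unnormalized whole-number counts for 35395 genes, of which 24173 have a symbol in the gene name table. The submitters' processing notes name FastQC 0.11.8, Trimmomatic 0.39, STAR 2.7.0 and the build Mmul_10. The counting tool, annotation release, strand setting and duplicate removal are not given (sources used here), so reads of overlapping, antisense or near-identical genes cannot be told apart. No genome of this build was used here, and neither coordinates nor sequences are given.

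A gene was tested where 5 or more libraries reached 1 CPM (13934 genes, 12605 with a symbol). The model was fitted in edgeR 4.0.16 (R 4.3.3) after TMM scaling, with implant and diet as additive terms, or with 1 mean per group for WSD against C, TWSD against T, WSD against T and the interaction. The quasi-likelihood F-test was robust, p-values were adjusted by Benjamini-Hochberg over all genes tested, and the threshold was 0.05. Changes are log2, high-fat against chow, with standard errors. Levels are TMM-scaled CPM. Values of single genes and lists without C 8, C 11 and C 12 come from a fit over the same genes unless the filter is said to be applied again. The common biological coefficient of variation was 0.918. In the smallest library (14219054 counts) 1 CPM is 14.2 counts, so low genes carry large counting error. On simulated data (13382 genes) the fit recovered 73% of 4-fold and 99% of 16-fold changes with 7 false calls. The changed genes were drawn from better expressed genes, and the libraries of each diet shared 1 mean per gene, so none stood apart as here. Changes below 4-fold were not simulated. The simulation therefore does not measure recovery of smaller rises or false calls in the present libraries.

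Alternatives were DESeq2 1.42.0, limma 3.58.1 voom with quality weights, DESeq2-type size factors, library totals, other filters, a surrogate variable (sva 3.50.0), a replicate block, and libraries left out. Leaving out C 8, C 11, C 12 and TWSD 2 together, and leaving out the 3 controls over the same genes, were added after seeing the data. The comparison, its gene lists and the rule for named genes were chosen with earlier results of these data known. Named were the 12 higher and 12 lower genes with the smallest p and a symbol, in each list the members that passed (at most 4) or else the one with the smallest p, the 5 genes with the smallest interaction p, and 9 lineage and stress genes. Other genes were named after their values were seen. No 2 columns of counts were identical (300 pairs, correlations of log2 CPM 0.589 to 0.926). Some genes that the rule names are not reported here.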

Additional observations from a re-analysis of the deposited data

Results flagged for a closer look

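In the C, T and WSD groups (5, 10 and 8 libraries), 23 of 183 checks (12.6%) placed the highest or lowest library beyond the range of Dixon's test at 95%. For independent checks chance gives about 1 in 20. The checks covered the genes with the smallest p and lists that share members, so they were not independent and the share is a description. T 1 accounted for 12 of the 23. It was the highest T library for HEXIM1 (188 CPM), FST (554), NEURL1 (85.6), CSRNP2 (29.9), ERVV-1 (8.75), SLAMF1 (4.85) and CCRL2 (4.44), and for the list means (log2 CPM) of syncytiotrophoblast markers (6.84), epiblast markers (6.38) and insulin and growth factor genes (5.54). It was the lowest T library for CKAP5 (123 CPM) and for the TCA cycle list (7.05). Among the controls, C 12 was lowest for ARHGAP11A (21.1 CPM) and for the list means of fatty acid oxidation (3.09) and Y-linked genes (-2.73), and C 11 was lowest for RNF20 (25.4 CPM). In the WSD group, WSD 6 was highest for SMC2 (237 CPM) and lowest for the chromatin and fatty acid oxidation lists (4.90 and 4.68), WSD 3 was lowest for NUP160 (125 CPM), WSD 8 for the primitive endoderm list (3.79), and WSD 1 alone had reads of SLAMF1 (0.128 CPM). T 11 was the lowest T library for MCM6 (244 CPM).

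The effect of the diet differed between females with and without testosterone for 10 genes, by edgeR's quasi-likelihood test of the interaction. On the log2 scale the effect with testosterone less the effect without was positive for SEPTIN4 (11.95), DDIT3 (7.20), ZNF280A (7.12), the stress gene HERPUD1 (5.17), the stress kinase EIF2AK3 (4.64) and GPBP1L1 (1.50). It was negative for MOSPD2 (-10.72), ZNF300 (-10.52) and TCEANC (-9.49). The group with both treatments had only 2 libraries. MOSPD2 and ZNF300 also passed without C 8, C 11 and C 12 (adjusted p = 0.00564 and 0.0189), and none of the 10 passed without TWSD 2. Without the 3 controls the differences for DDIT3, ZNF280A, HERPUD1 and EIF2AK3 were 0.34, 0.47, 0.72 and 1.16 and did not pass (adjusted p = 0.875, 0.808, 0.66 and 0.433).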

How the results depend on the processing

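Against 79 higher and 263 lower genes, DESeq2 called 219 and 778 (747 adjusted p-values not given), voom with quality weights 1 and 1 (1287 at an unadjusted p under 0.05), library totals 29 and 147, equal weight of both implant strata 12 and 7, and a fit without the implant term 0 and 0 (1145 unadjusted). Without both TWSD libraries 645 were lower. Without C 8, C 11 and C 12 the counts were 22 and 2, without T 1 too 19 and 1, without TWSD 2 in its place 0 and 1, and without the 3 controls over the same genes 0 and 0. Leaving out 1 library gave 22 to 211 higher and 68 to 469 lower genes. Other filters, size factors, dispersions and a surrogate variable stayed within 1.5 times. Against 10 interaction genes, DESeq2 called 400, library totals 5, the fit without the 3 controls 3, and leaving out a TWSD library 0 to 2245. With the replicate block there were 0 higher, 0 lower and 0 interaction genes (1284 and 398 unadjusted). The labels do not pair libraries by number, and deviations of 16 same-numbered pairs correlated between -0.376 and 0.222. Depth limits calls for genes near 1 CPM.

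Directions turned for named genes that had not passed and for 5 that had. In voom ETFA was at -0.0082, SEPTIN4 at -1.59, SOX17 at 0.77 and GATA4 at 0.91. POU5F1 was at -0.039 with library totals. Without the implant term SEPTIN4 was at -2.53, POU5F1 at -0.31, SOX17 at 0.21 and GATA4 at 0.046. With the surrogate variable UTY was at -0.030, SEPTIN4 at -3.16, SOX17 at 0.23 and GATA4 at 0.24. With the replicate block UTY was at -0.49, POU5F1 at -0.11 and CDX2 at -0.19. With equal weight of both implant strata SEPTIN4 was at -0.54 and POU5F1 at -0.14. Without TWSD SEPTIN4 was at -6.54. Without the 3 controls CD14 was at 0.13, DDIT3 at 0.10, POU5F1 at -0.70, SOX17 at 0.23, GATA4 at 0.025 and CDX2 at -0.049. Without T 1 too they were at 0.10, 0.22, -0.68, 0.25, 0.069 and -0.11, and SQSTM1 at 0.015. Over the same genes the first 6 were at 0.12, 0.090, -0.70, 0.21, 0.013 and -0.060. Without the 3 controls and TWSD 2, ETFA was at -0.11, ATF3 at 0.24, LOX at 0.027, SQSTM1 at 0.0082, CCN1 at 0.43, CCN2 at 0.26, CD14 at 0.41, ZNF300 at 0.17, POU5F1 at -0.75, SOX17 at 0.73 and GATA4 at 0.51. Over single libraries left out, CD14 ran from -4.13 to 0.13, GATA4 from -0.60 to 0.55, POU5F1 from -0.22 to 0.68, SEPTIN4 from -6.15 to 1.39, SOX17 from -0.51 to 0.89 and UTY from -0.32 to 0.86. The cause was not tested.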

Other observations

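The groups below were picked after the values were seen, so their counts are descriptions. Over all genes tested 0.567% rose and 1.89% fell. Of 20 cytosolic aminoacyl-tRNA synthetase genes, whose enzymes load amino acids onto transfer RNA, EPRS1, RARS1 and LARS1 rose with the high-fat diet (log2 changes 0.73, 0.76 and 0.63) and 0 fell. Their list median was 0.21, and 0.33 without C 8, C 11 and C 12. RARS1 was at 232 to 575 CPM in controls, 318 to 733 in WSD, 1765 in TWSD 2 and 785 in TWSD 3, with overlapping C and WSD ranges. Of 13 genes of condensin and cohesin, the rings that shape and hold chromosomes, SMC2, NCAPG2 and SMC3 rose (1.03, 0.91 and 0.67) and the list median was 0.63 (0.47 without the 3 controls). Of 16 tested kinetochore genes, which attach chromosomes to the spindle, KNL1, SPDL1 and ZWILCH rose (1.20, 1.08 and 0.66), with a median of 0.64 (0.36).

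Of 9 tested genes of plasma proteins, known from liver and yolk sac, 7 fell with the diet (FGB, FGG, F2, PLG, TTR, APOB and RBP4). Their levels were high in 1 control. FGB, a fibrinogen chain, was at 4727 CPM in C 11 and 65.8 in C 8, and at most 6.49 in any other library. PLG, plasminogen, was at 455 CPM in C 11 and at most 1.78 elsewhere. In high-fat libraries PLG was at most 0.512 CPM, so it was tested through chow libraries alone, where a fall was bound to appear. The list median was -7.07, and -1.73 without the 3 controls. C 12 had little FGB (0.157 CPM) and no count of PLG but 25.4 CPM of F2, next to 397 in C 11. C 12 was also low in the proliferation gene MKI67 (0.261 CPM) and had the highest DDIT3 (8642 CPM) and CDKN1A (4135 CPM). The 3 controls that stood apart thus also differed from each other.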
